A study of Homo sapiens with 12 samples.

Results

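The miR-146 family was represented by 3 strands, hsa-miR-146a-5p, hsa-miR-146b-5p and hsa-miR-146b-3p (the species prefix hsa is left out from here on). They were chosen by name as all microRNAs listed under miR-146a or miR-146b. These are 3 of the 952 microRNAs measured in at least 1 of 2 comparisons, and all 3 were measured in both, where 753 microRNAs were shared. The opposite strand of the miR-146a hairpin, miR-146a-3p, was not analysed here.

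Small RNA was sequenced from K562, a human erythroleukaemia cell line, in 12 libraries forming 4 groups of 3 described as biological triplicates. Cells given a guide that targets CYRANO, a long non-coding RNA, form the sgCYRANO group, and cells given a non-targeting guide (sgNT) are their control. Cells of genotype ZSWIM8-/- (ZSWIM8 KO) were set against wild-type cells (WT), and neither of these groups is listed with a guide. CYRANO is a target RNA that directs the decay of miR-7, and ZSWIM8 recruits substrates to a Cullin-RING ubiquitin ligase that acts in this kind of decay. The labels do not say whether the lines were single clones. The comparisons ask which microRNAs depend on CYRANO or on ZSWIM8.

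Both miR-146 genes are known as part of a negative feedback on inflammatory signalling. NF-kB, a transcription factor activated downstream of Toll-like and interleukin-1 receptors, induces miR-146a, and the 5p strands repress TRAF6 and IRAK1, signalling proteins of the same receptors. In a microRNA hairpin usually 1 arm, the guide, is kept in Argonaute and represses targets, while the other arm, the passenger, is mostly degraded. In target-directed decay a highly complementary RNA triggers destruction of the microRNA that pairs with it, so a substrate would be higher where the pathway is lost.

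The 5p strands share their seed, bases 2 to 8 from the 5′ end, which sets most of their targets, while the 3p strand has another. The mature sequences in RefSeq (GRCh38.p14) are given 5′ to 3′ with the seed in capitals, to show which strands could act on the same targets.
miR-146a-5p: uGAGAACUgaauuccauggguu
miR-146b-5p: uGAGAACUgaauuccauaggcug
miR-146b-3p: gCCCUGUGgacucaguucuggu

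Of 2370 human mature microRNAs in that set, 3 had the seed GAGAACU, and of these miR-146a-5p and miR-146b-5p were measured. The seed CCCUGUG was found in miR-146b-3p alone. The start of miR-146b-3p in the authors' annotation is not known here, and another start would shift this seed and its matches. The 5p strands had the same first 17 bases and differed at 2 of the 22 positions compared, G18A and U21C, written with the base of miR-146a-5p first and counted from the 5′ end. They are shown again with only the differing bases in capitals, because a read cut short before these bases fits either strand.
miR-146a-5p: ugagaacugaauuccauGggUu
miR-146b-5p: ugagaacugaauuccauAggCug

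The hairpins lie on different chromosomes. MIR146B is at chr10:102436512-102436584 of GRCh38, + strand, and overlaps no other gene in GENCODE 29. NFKB2, which encodes an NF-kB subunit, ends 33983 bases before it. MIR146A is at chr5:160485352-160485450, + strand, within an exon of both annotated transcripts of the non-coding host gene MIR3142HG. In the hairpins, given 5′ to 3′ with both mature arms in capitals, the 5p arm comes first.
MIR146B: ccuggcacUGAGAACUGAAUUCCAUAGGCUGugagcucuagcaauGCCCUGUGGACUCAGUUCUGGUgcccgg
MIR146A: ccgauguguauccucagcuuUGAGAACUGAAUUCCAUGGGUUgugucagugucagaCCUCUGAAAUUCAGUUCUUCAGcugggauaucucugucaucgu

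All values rest on the authors' deposited tables of both comparisons, in which 837 microRNAs were tested in sgCYRANO and 868 in ZSWIM8 KO, each against its own control. Values of single libraries were not used here. The levels are therefore group means in counts per 1000000 reads (CPM), recovered from the deposited mean log2 CPM and log2 fold change, with no spread over replicates. The ± values are standard errors calculated back from the deposited p-values. The table headers give no direction, and sgCYRANO over sgNT and ZSWIM8 KO over WT were taken as the ratios. miR-7-5p, which CYRANO and ZSWIM8 are known to direct to decay, is higher in both under this reading and was the ground for it, so its sign is no result here. Turned round, the values of both groups would change places. Group totals, read from the smallest steps in the means, were 5289000 reads for sgCYRANO, 5490000 for sgNT, 7058000 for ZSWIM8 KO and 3807000 for WT. Of 6 erythroid and megakaryocytic markers 6 were measured, with summed levels of 13937 CPM in sgCYRANO, 13612 CPM in sgNT, 15999 CPM in ZSWIM8 KO and 16624 CPM in WT. Of 6 non-haematopoietic markers 4 were measured, with sums of 82.0, 78.0, 140.02 and 99.96 CPM in the same order. Of these, miR-375-3p had 49.2 CPM in ZSWIM8 KO and 3.70 CPM in WT (edgeR, adjusted p = 0.201 in the authors' deposited table), and without it the sums were 90.8 and 96.3 CPM. miR-486-5p made up most of the erythroid sums, with 13387 CPM in ZSWIM8 KO and 14449 CPM in WT. Of the scarcer erythroid microRNAs, miR-451a had a log2 fold change of 0.74 ± 0.62 and miR-144-5p one of 0.45 ± 0.41 in the authors' deposited table, neither past the threshold. miR-144-3p, also not past it, had 239 CPM in ZSWIM8 KO and 119 CPM in WT. The 1 erythroid marker called was miR-486-3p, which was lower, at -0.40 ± 0.14 (edgeR, adjusted p = 0.0427 in the authors' deposited table). miR-210-3p did not pass, at -0.06 ± 0.14. The part of these microRNAs in the results was not tested.

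miR-146b-5p was one of the most abundant microRNAs of these cells. Its group mean was 99933 CPM in sgCYRANO, 96841 CPM in sgNT, 89335 CPM in ZSWIM8 KO and 97280 CPM in WT, and it held rank 4 in every group. It thus took 9.99%, 9.68%, 8.93% and 9.73% of all counted reads in that order. These means rested on about 528583, 531664, 630552 and 370357 reads, so counting error was small, with a Wilson 95% interval of 89125 to 89546 CPM in ZSWIM8 KO and 96983 to 97578 CPM in WT. Such intervals cover counting error only and not the spread between cultures. They and the read numbers are approximate, because each mean was multiplied by the total of a group whose libraries differed in depth.

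miR-146b-3p, from the opposite arm of the same hairpin, was far scarcer. It had 758 CPM in sgCYRANO, 885 CPM in sgNT, 463 CPM in ZSWIM8 KO and 669 CPM in WT, at ranks 61, 56, 80 and 65. The tables were scaled separately, and no test of levels was made across them. Within both tables the perturbed group had the lower mean.

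miR-146a-5p was the scarcest of the 3 strands, although it is the better known regulator in immune cells. Its means were 251 CPM in sgCYRANO, 248 CPM in sgNT, 248 CPM in ZSWIM8 KO and 233 CPM in WT, at ranks 96, 99, 100 and 106. These 4 means lay close together, and within each table the Wilson intervals of both groups overlapped. The order of levels, miR-146b-5p over miR-146b-3p over miR-146a-5p, was the same in all 4 groups.

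**Figure D1:**
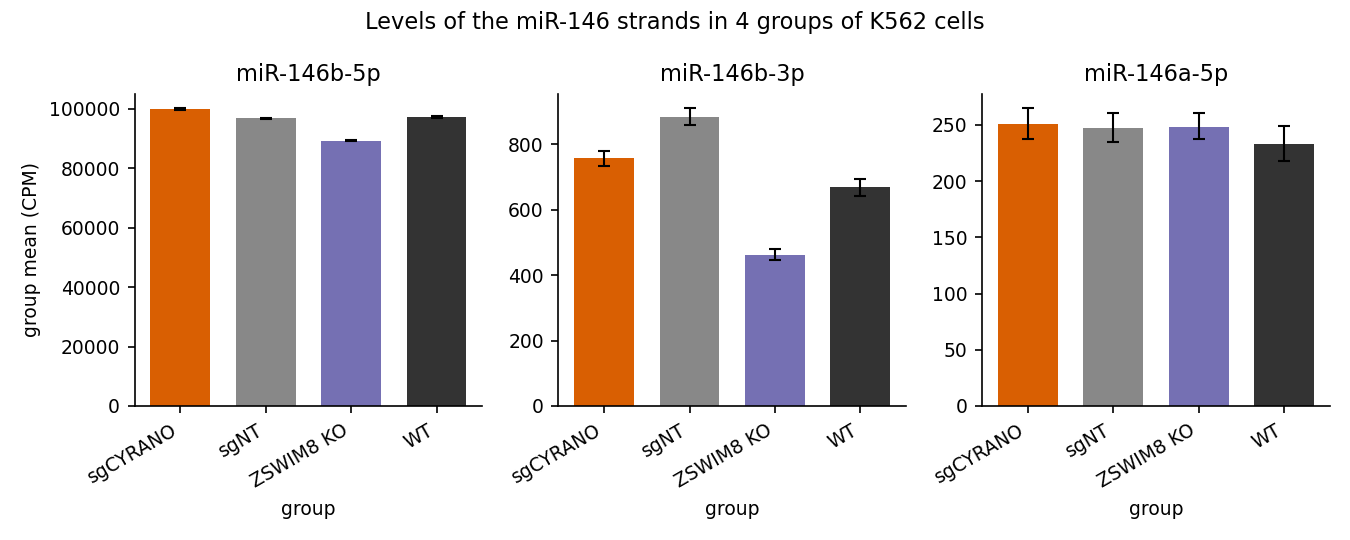
Group means of miR-146b-5p, miR-146b-3p and miR-146a-5p in CPM (vertical axes from 0, a scale per strand) for sgCYRANO, sgNT, ZSWIM8 KO and WT, with Wilson 95% intervals for counting error only. The lowest bar of miR-146b-3p is ZSWIM8 KO at 463 CPM, while the bars of miR-146a-5p lie between 233 and 251 CPM.

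The level of miR-146b-5p was 398 times that of miR-146a-5p in sgCYRANO, 391 times in sgNT, 360 times in ZSWIM8 KO and 417 times in WT. Put the other way, miR-146a-5p amounted to 0.251%, 0.256%, 0.278% and 0.240% of miR-146b-5p in that order. No source used here gives how reads that fit both strands were assigned, so the level and the change of miR-146a-5p are uncertain. The pool of 5p strands with the seed GAGAACU was therefore almost wholly miR-146b-5p, and took 10.02% of counted reads in sgCYRANO, 9.71% in sgNT, 8.96% in ZSWIM8 KO and 9.75% in WT. Summed by seed over the microRNAs with a RefSeq sequence, it ranked 4 of 665 seeds in sgCYRANO and sgNT and 4 of 686 seeds in ZSWIM8 KO and WT.

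The first comparison asked whether the strands respond to disruption of CYRANO, and none passed the test. For miR-146b-5p the authors' deposited table gave a log2 fold change of 0.05 ± 0.07 (edgeR quasi-likelihood test, adjusted p = 0.984), with a 95% interval of -0.10 to 0.19. For miR-146a-5p the authors' deposited table gave 0.02 ± 0.12 (edgeR, adjusted p = 0.996), with an interval of -0.21 to 0.25. As ratios to sgNT these intervals run from 0.936 to 1.14 for miR-146b-5p and from 0.864 to 1.19 for miR-146a-5p.

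miR-146b-3p had the lowest of the 3 values in sgCYRANO. Its log2 fold change in the authors' deposited table was -0.22 ± 0.10 with an unadjusted p of 0.0271, and the adjusted p over all 837 microRNAs was 0.816 (edgeR). By unadjusted p it stood at rank 27 in a table where 49 microRNAs were under 0.05. Of all microRNAs tested here, 0.119% were called higher and 0% lower, the 1 call being miR-7-5p at 2.52 ± 0.09 in the authors' deposited table.

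CYRANO itself was searched for matches to the seeds. Its longest annotated transcript (OIP5-AS1, 8829 bases, GENCODE 29) held AGTTCTC, the match to the seed of the 5p strands, 0 times, and CACAGGG, the match to the seed of miR-146b-3p, 1 time, at position 5597. Only the sense strand was searched. The match to the seed of miR-7-5p, GTCTTCC, occurred 3 times. Of 1235 transcripts within 10% of that length, 48.7%, 50.8% and 49.2% held the 3 motifs in the same order.

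The second comparison asked whether the strands respond to loss of ZSWIM8, and 1 of the 3 passed. miR-146b-3p fell to 463 CPM in ZSWIM8 KO, against 669 CPM in WT. The log2 fold change in the authors' deposited table was -0.53 ± 0.13 (edgeR quasi-likelihood test, adjusted p = 0.00106), or 0.692 of the WT level with a 95% interval of 0.579 to 0.826. Of all 868 microRNAs tested, 9.91% were called, with 5.18% lower and 4.72% higher. About 3266 reads in ZSWIM8 KO and 2547 in WT stood behind these means. The sign is opposite to that of miR-7-5p, the strand that CYRANO targets, at 2.35 ± 0.14 in the authors' deposited table. That error is overstated, because a normal deviate was taken for the extreme p-value of an F test.

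miR-146b-5p had 89335 CPM in ZSWIM8 KO and 97280 CPM in WT. Its log2 fold change in the authors' deposited table was -0.12 ± 0.07 (edgeR, adjusted p = 0.323), with an interval of -0.26 to 0.01. miR-146a-5p had 0.09 ± 0.16 in the authors' deposited table (edgeR, adjusted p = 0.826), with an interval of -0.22 to 0.40. Neither 5p strand showed a rise beyond its error.

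The centre of the fold changes matters for these values. The median log2 fold change of the 304 microRNAs at 10 CPM or more was 0.13 in ZSWIM8 KO against WT, while in sgCYRANO against sgNT it was -0.02 over 299. Relative to that median miR-146b-3p stood at -0.66 (adjusted p = 1.57e-05, normal test with the deposited errors), and miR-146b-5p at -0.25, where it passed the threshold (adjusted p = 0.0040). miR-146a-5p turned to -0.04 (adjusted p = 0.932). The calls of the whole table, 41 higher and 45 lower as deposited, became 30 higher and 62 lower.

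The call of miR-146b-3p rests on a variance shared between microRNAs. The degrees of freedom implied by the deposited F and p were 164.1 for this strand, where 6 libraries in 2 groups leave 4. With F read on 4 degrees of freedom its adjusted p was 0.304, and 3 calls were left in the table, 1 higher and 2 lower. This reading keeps the deposited F with its shared variance and can only raise p-values. It is therefore not a test on the strand's own variance, which these values do not give. The lymphoid marker list, kept because lymphoid cells carry miR-146a, had 3 of 5 members measured and summed to 3441 CPM in ZSWIM8 KO and 3773 CPM in WT, with 1 member called higher (miR-342-3p) and miR-150-5p and miR-155-5p not analysed in that table. Most of these sums was miR-142-3p and miR-142-5p, at 2331 and 947 CPM in ZSWIM8 KO and 2778 and 901 CPM in WT. The part of the lymphoid list in the result was not tested.

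**Figure D2:**
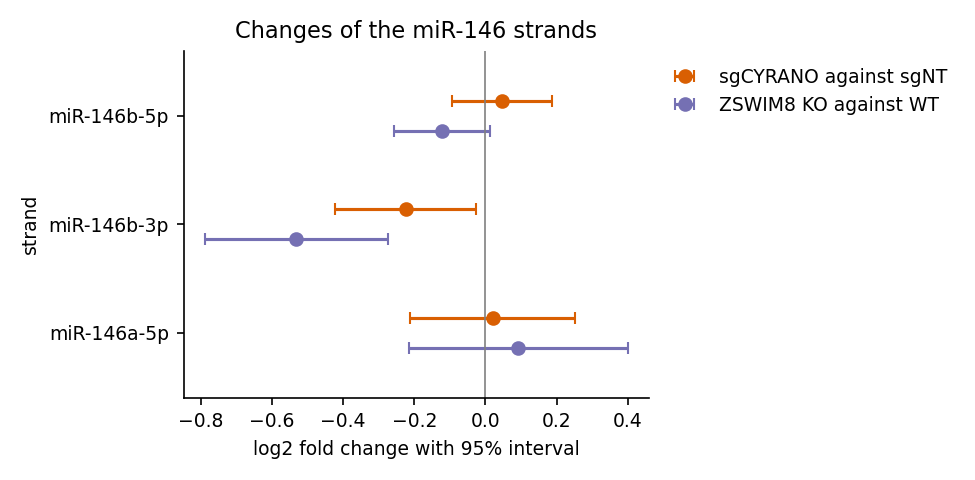
Log2 fold changes (horizontal axis) of the 3 strands for sgCYRANO against sgNT and ZSWIM8 KO against WT, with 95% intervals from the deposited p-values. The interval of miR-146b-3p in ZSWIM8 KO runs from -0.79 to -0.28, and those of both 5p strands include 0 in each comparison.

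**Figure D3:**
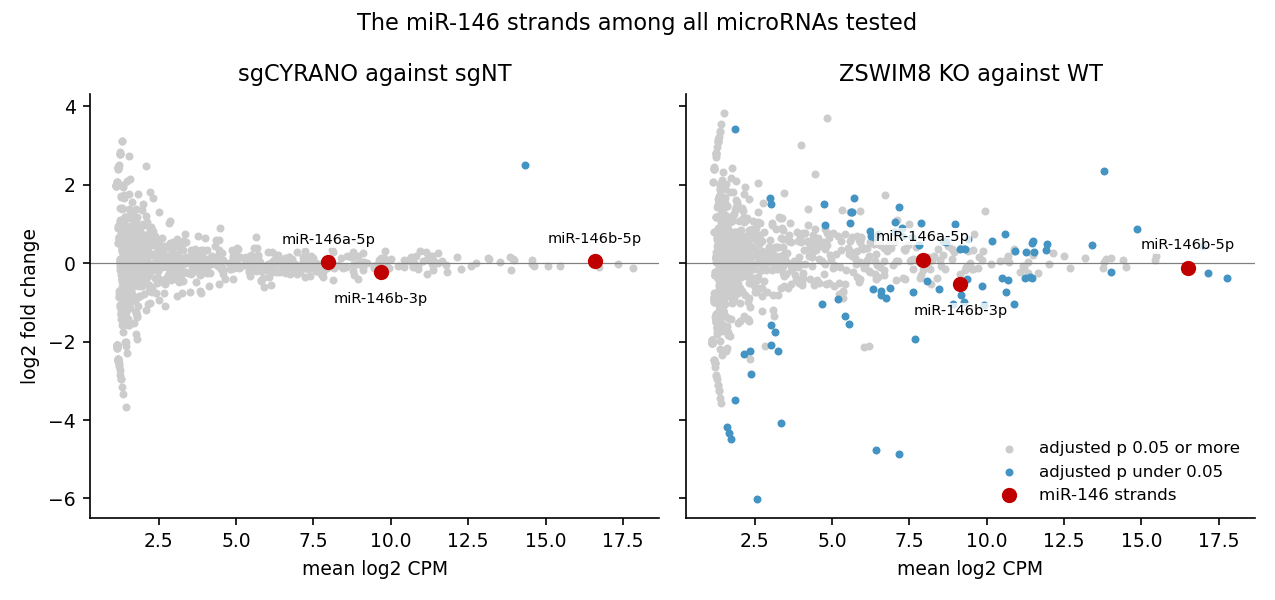
Log2 fold change against mean log2 CPM for all 837 and 868 microRNAs, with the miR-146 strands in red and calls in blue. In ZSWIM8 KO miR-146b-3p lies among the called falls at -0.53, and miR-146b-5p at -0.12 lies near the high end of abundance.

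The arms of the miR-146b hairpin were then set against each other, since they come from 1 precursor. The level of the 5p arm was 132 times that of the 3p arm in sgCYRANO and 109 times in sgNT, and 193 times in ZSWIM8 KO and 145 times in WT. In ZSWIM8 KO the log2 fold change of the 5p arm minus that of the 3p arm was 0.41 ± 0.15 (95% interval 0.12 to 0.70, unadjusted p = 0.00572, normal test). Adjusted over 209 hairpins the p was 0.0996, so the difference did not pass. Restricted to hairpins with both arms at 10 CPM or more the same difference passed, with an adjusted p of 0.0338.

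In sgCYRANO the arm difference had the same sign and did not pass, at 0.27 ± 0.12 (unadjusted p = 0.0300, adjusted p = 0.969 over 201 hairpins, normal test). An arm difference of either sign was called in 5.26% of hairpins in ZSWIM8 KO and 0.498% in sgCYRANO, and one with the 5p arm relatively higher in 2.87% and 0.498%. These tests treat the errors of both arms as independent although the arms were measured in the same libraries.

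Among the less abundant arms of 71 hairpins with both arms at 10 CPM or more, 8 were called lower and 8 higher in ZSWIM8 KO against WT, where 5.18% and 4.72% of all 868 microRNAs were. Only 304 of those 868 had 10 CPM or more, so these shares do not describe microRNAs of like abundance. Of the more abundant arms 5 were called lower and 12 higher. The median log2 fold change was 0.03 for the scarcer arms and 0.13 for the more abundant ones. miR-146b-3p, at -0.53, was among the 9 lowest of the 71. It belonged to 5 hairpins whose scarcer arm was called lower while the other arm was not called, with those of miR-16-2, miR-30e, miR-32 and miR-486. As many, 5, had the scarcer arm called higher with the other arm not called, those of miR-130b, miR-330, miR-361, miR-425 and miR-9. By the excess of the main arm, at 165 times over the means of both groups, the miR-146b hairpin ranked 11 of the 71, against a median of 6.97 times.

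**Figure D4:**
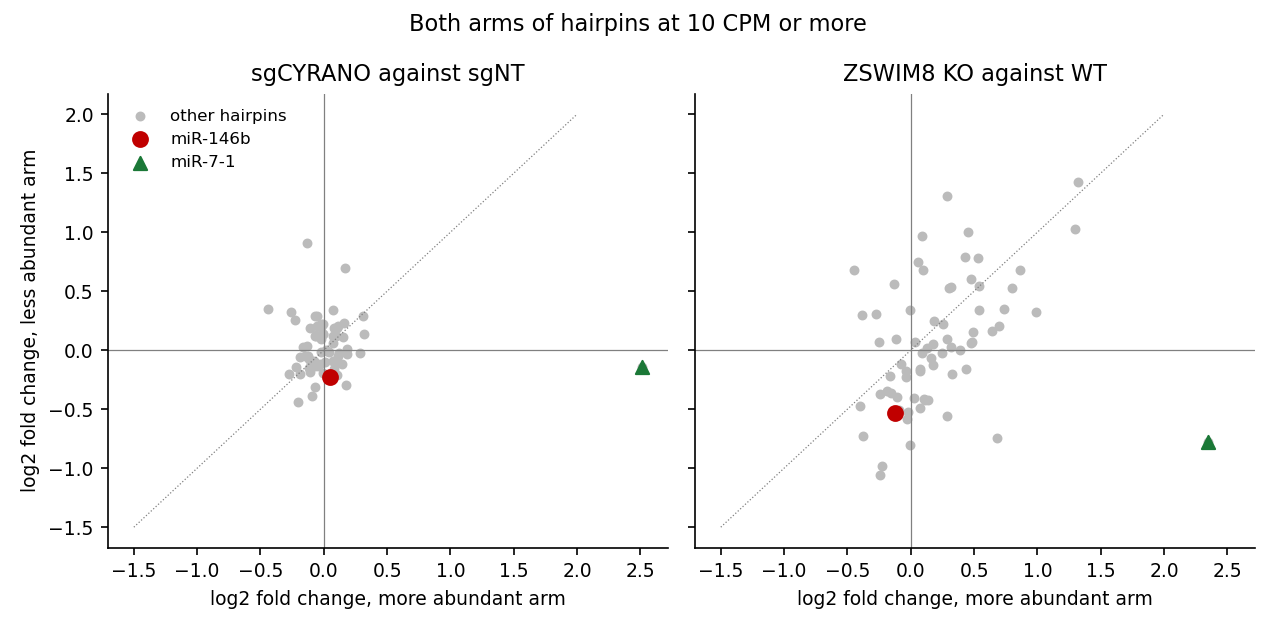
Log2 fold change of the less abundant arm (vertical axis) against that of the more abundant arm (horizontal axis) for 70 hairpins in sgCYRANO against sgNT and 71 in ZSWIM8 KO against WT. The dotted line marks equal changes. miR-146b lies under it in both panels, at -0.53 for the 3p arm and -0.12 for the 5p arm in ZSWIM8 KO, while miR-7-1 stands far to the right through its 5p arm.

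The 5p strands of both genes were compared as 1 pair among all pairs with the same seed and means of 10 CPM or more. In ZSWIM8 KO the log2 fold change of miR-146a-5p minus that of miR-146b-5p was 0.22 ± 0.17 (interval -0.12 to 0.55, adjusted p = 0.630 over 75 pairs, normal test), where 10.7% of pairs passed. In sgCYRANO the difference was -0.03 ± 0.14 (interval -0.30 to 0.25, adjusted p = 0.9996 over 76 pairs, normal test), where 0% passed. A difference between these near-identical strands was therefore not detected in either comparison. Reads of miR-146b-5p counted as miR-146a-5p would shrink such a difference, and their share is not known.

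Whether loss of ZSWIM8 and disruption of CYRANO acted differently on the strands was tested over the 753 shared microRNAs, of which 6.64% passed. For miR-146b-3p the log2 fold change in ZSWIM8 KO minus that in sgCYRANO was -0.31 ± 0.17 (interval -0.63 to 0.02, adjusted p = 0.359, normal test). For miR-146b-5p the difference was -0.17 ± 0.10 (adjusted p = 0.428, normal test) and for miR-146a-5p 0.07 ± 0.20 (adjusted p = 0.915, normal test). None passed, and the unadjusted p-values were 0.0634, 0.0904 and 0.713 in that order. The difference of miR-146b-5p passed when both tables were centred on their medians, at -0.32 (adjusted p = 0.0234).

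Strands of like abundance show what the errors were at these levels. Nearest to miR-146b-3p were miR-374a-5p, miR-25-5p and miR-615-3p, with log2 fold changes in ZSWIM8 KO of 0.32 ± 0.12, -0.98 ± 0.17 and -0.08 ± 0.13 in the authors' deposited table. Of these only miR-25-5p, itself the scarcer arm of its hairpin, passed (edgeR, adjusted p = 2.08e-07). Nearest to miR-146b-5p were miR-148a-3p, miR-92a-3p and miR-26a-5p, with 0.43 ± 0.07, -0.24 ± 0.07 and 0.07 ± 0.07 in ZSWIM8 KO in the authors' deposited table. The first was called higher and the second lower, so errors at this abundance were small enough to call changes of this size. Nearest to miR-146a-5p were miR-1273h-3p, miR-218-5p and miR-671-3p, with standard errors of 0.16, 0.60 and 0.15 against 0.16 for miR-146a-5p.

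By the pair of log2 fold changes, over 291 other microRNAs at 10 CPM or more in both tables, miR-146b-3p was most like miR-200b-3p, miR-218-5p and miR-12136, with a largest difference of 0.02, 0.06 and 0.08. None of these 3 passed in either comparison. Their standard errors in ZSWIM8 KO against WT were larger, at 0.38, 0.60 and 0.34, against 0.13 for miR-146b-3p. miR-146b-5p was most like miR-941, miR-486-5p and miR-200c-3p, and miR-146a-5p most like miR-505-5p, miR-145-5p and miR-22-5p, all within 0.04. Likeness here covers 2 values and is a description.

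Other microRNAs linked to NF-kB or innate immune signalling were taken from a list of 23. In ZSWIM8 KO against WT 18 were measured, of which 1 rose, 4 fell and 13 did not pass. Over all 868 microRNAs 4.72% were called higher and 5.18% lower. Only 304 of the 868 had 10 CPM or more, while most of the measured list did, so the shares are not at like abundance. The median log2 fold change of the list was 0.02, against 0.08 over all 868. The rise was of miR-9-3p, at 204 CPM in ZSWIM8 KO and 76.0 CPM in WT, with 1.43 ± 0.26 in the authors' deposited table. miR-9-5p, its partner arm, which targets NFKB1, had 1.32 ± 0.54 in the authors' deposited table (edgeR, adjusted p = 0.106). The falls included both arms of miR-21, a microRNA that NF-kB can induce, with -0.38 ± 0.07 for miR-21-5p and -0.73 ± 0.17 for miR-21-3p in the authors' deposited table. They also included the myeloid miR-223-5p at -0.38 ± 0.10 and miR-125b-5p at -2.09 ± 0.53 in the authors' deposited table. The other arm of the miR-223 hairpin, miR-223-3p, did not pass, with 0.30 ± 0.12 in the authors' deposited table (edgeR, adjusted p = 0.0779). miR-125b-5p stood at 2.25 CPM in ZSWIM8 KO and 9.97 CPM in WT.

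In sgCYRANO against sgNT 20 of the 23 were measured and 0 passed (edgeR), where 0.119% of all microRNAs did, so the count says nothing particular to the list. Its median log2 fold change was -0.02, against 0.01 over all 837. At an unadjusted p under 0.05 there were 2, miR-9-5p at 0.31 ± 0.10 and miR-9-3p at 0.29 ± 0.14 in the authors' deposited table. miR-155-5p, which lipopolysaccharide induces together with miR-146a in monocytes, was near the limit of detection. Its means were 0.180 CPM in sgCYRANO and 0.899 CPM in sgNT, where 3 counts over a group correspond to 0.567 and 0.546 CPM. miR-132-3p, induced in the same setting, had 116 CPM in sgCYRANO and 119 CPM in sgNT, and 122 CPM in ZSWIM8 KO and 125 CPM in WT, and passed in neither comparison. MIR3142, the other microRNA gene within the host transcript of MIR146A, was not analysed here.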

How the data were processed

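Small RNA of 12 K562 libraries was analysed in 2 comparisons of 3 against 3. Per the submitters' processing notes, the build was hg19 and the tools included STAR, featureCounts and edgeR, with no roles or order given. Per the file headers, the authors' deposited edgeR tables give a log2 fold change, a mean log2 CPM, an F statistic (used as a score), a p-value and an adjusted p-value per microRNA. Their tests were kept, with a threshold of 0.05.

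The deposited adjusted p-values were recomputed by Benjamini-Hochberg adjustment of all rows, with largest differences of 5.5e-08 and 1.09e-06. Group means in CPM were recovered with prior counts of 2 and 0.125, and summed to 1000000 in all 4 groups, so the deposited values had been scaled to library totals. The recovery took the authors' test as run on values already in CPM. If so, the deposited F and p-values, and the errors drawn from them, do not reflect the depth of each library. Library totals of 860000 to 2486000 reads were read from the smallest steps, which explained all recovered group means between 0.01 and 1 CPM within 0.0015 CPM. Dividing each log2 fold change by the normal deviate of its p-value gave the standard errors. Differences were tested with a normal reference, two-sided, and adjusted over all microRNAs, hairpins or pairs. Procedures were tested on simulated fold changes with normal errors of the size used here (Python 3.11.15, scipy 1.17.1). No counts or libraries were simulated, so this checks the calculation and not its assumptions.

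Named microRNAs were the 3 strands, miR-7-5p, the 3 nearest in abundance and in fold changes to each strand, and the list of 23. Members and lists were chosen with earlier results of these data known. Sequences came from RefSeq and annotation from GENCODE 29, both on GRCh38. Of 837 and 868 microRNAs, 762 and 786 had a sequence. The triplicates are described as biological, and no column held single libraries.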

Additional observations from a re-analysis of the deposited data

How the results depend on the processing

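No paired analysis was possible because the tables hold no values per library, and for the same reason DESeq2 and leaving out replicates were not run. Of 85 alternative values for 29 results, 74 kept their direction and side of the threshold or, for levels and counts of calls, stayed within the counting interval or within 1.5 times. Many of the 74 could hardly have changed, so this count is no measure of robustness. Levels were recomputed only with other prior counts, which matter little at these abundances. Centring cancels in the differences between arms and between strands of the same seed. With fold changes of ZSWIM8 KO against WT centred on the median or on a 30% trimmed mean, miR-146a-5p reversed to -0.037 and -0.057, and miR-146b-5p passed at -0.25 and -0.27, while calls went to 30 and 28 higher and 62 and 63 lower. Centring on the medians also reversed the difference between the comparisons for miR-146a-5p to -0.079 and let that of miR-146b-5p pass at -0.32. Without microRNAs under 10 CPM, the arm difference of 0.41 in ZSWIM8 KO passed, and 62 microRNAs in place of 41 were called higher and 40 in place of 45 lower. With 4 denominator degrees of freedom miR-146b-3p kept its value of -0.53 without passing, and 1 higher and 2 lower calls were left, against 41 and 45. The fewer degrees of freedom raise every p-value by construction. The cause of the other shifts was not tested. Depth limits miR-146a-5p most, whose mean in WT rests on about 887 reads.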
